A study of Mus musculus with 8 samples.

Results

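The proteasome is the barrel-shaped protease that degrades ubiquitin-tagged proteins, and its genes in mouse carry symbols beginning with Psm. Members were the loci whose symbol starts with Psma, Psmb, Psmc, Psmd, Psme, Psmf or Psmg followed by a number and whose FPKM, a fragment count scaled for transcript length and library size, was at least 1 in at least 2 libraries. The symbol matched 49 of 23699 loci, and 47 passed the filter on low values: 18 core genes (Psma and Psmb), 20 regulatory genes (Psmc and Psmd) and 9 others (Psme, Psmf and Psmg). The filter left 10865 loci in all for the tests. Psmb11, a thymus subunit, did not pass, with 0.00724 to 0.0776 FPKM, and neither did Psmc3ip, whose symbol matches although its product is not a proteasome subunit, with 0.190 to 0.554 FPKM. The testis subunit Psma8 passed narrowly, with 0.281 to 2.25 FPKM and no more than 1.04 FPKM in 7 of the 8 libraries.

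Polyadenylated liver RNA was sequenced from 8-week-old male C57/BL6 mice of 2 genotypes, control and liver-specific Med23 knockout (LMKO). The Med23 protein belongs to Mediator, which links transcription factors to RNA polymerase II. Mice of each genotype were fasted for 24 h, or were fasted for 24 h and then re-fed for 24 h, which gave 4 groups of 2 mice: fasted control, fasted LMKO, re-fed control and re-fed LMKO. The labels do not state which alleles the control mice carried or which promoter drove the deletion.

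The core particle is a stack of alpha rings, which gate the entrance, and beta rings, which hold the proteolytic sites. The regulatory particle binds ubiquitin chains, removes them and threads the protein into the core, and its base contains a ring of ATPases. Under interferon, the catalytic beta subunits Psmb5, Psmb6 and Psmb7 can be replaced by the inducible Psmb8, Psmb9 and Psmb10, which together make the immunoproteasome. Many constitutive proteasome genes are targets of the transcription factor NRF1 (Nfe2l1), which binds antioxidant response elements.

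Library facts that touch all results were as follows. FPKM summed to between 453652 and 468218 in the 4 fasted libraries and to between 511926 and 597650 in the 4 re-fed ones. Med23 was at 2.86 and 2.93 FPKM in fasted controls, 2.35 and 2.18 in fasted LMKO livers, 2.86 and 2.33 in re-fed control livers, and 1.61 and 1.74 in those of re-fed LMKO mice, so that LMKO libraries were below the controls of the same feeding state. The labels do not name the deleted exons, so a value over the whole locus is a partial check. The hepatocyte marker Alb was listed at 0 in all 8 libraries, while Apoa1 stood at 4586 to 9851 FPKM. The deposited file names of the fasted libraries share one leading number and those of the re-fed libraries share another. The labels do not say what the number stands for, so anything it marks cannot be told apart from feeding. In bulk tissue, fewer cells of a type and less RNA per cell cannot be told apart.

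Of the 47 members, 39 had a promoter entry in RefSeq (build GRCm38.p6), and the 250 bases upstream of the start were searched on both strands for the antioxidant response element core TGACNNNGC. It was present in 5 of the 39 (12.8%), beside 11.5% of the 27025 genes with an entry. The 5 stretches are shown because the genes that carry the letters behaved differently in liver: Psmb5 and Psmb6 rose on re-feeding, Psmd9 fell, and Psmc6 and Psmd12 were not called. Capitals mark the match and the sequences read along the gene's strand. They lie at chr14:54618004-54618072 (minus strand) for Psmb5, chr11:70525318-70525356 (plus) for Psmb6, chr14:45329574-45329635 (plus) for Psmc6, chr11:107479278-107479319 (plus) for Psmd12 and chr5:123228129-123228189 (plus) for Psmd9.
Psmb5: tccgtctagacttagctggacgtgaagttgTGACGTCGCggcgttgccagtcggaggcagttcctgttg
Psmb6: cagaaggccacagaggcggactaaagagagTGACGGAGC
Psmc6: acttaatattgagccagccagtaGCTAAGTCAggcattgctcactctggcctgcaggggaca
Psmd12: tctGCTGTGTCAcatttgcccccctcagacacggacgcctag
Psmd9: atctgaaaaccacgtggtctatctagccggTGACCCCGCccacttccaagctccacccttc
In Psmb5, Psmb6 and Psmd9 the match reads along the gene's strand, and in Psmc6 and Psmd12 it reads on the opposite one. The interferon-stimulated response element core was found in Psmb3, Psmd4 and Psmd9 (7.69%, beside 3.46% of all genes with an entry), the GAS core TTCNNNGAA in Psmb8 and Psmg1 (5.13%, beside 8.13%), and CCAAT in 13 of 39 (33.3%, beside 37.5%). These are matches of letters in a window and are given as a description.

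Averaged over both genotypes, 32 of the 47 members rose and 1 fell (limma on log2(FPKM + 1), Benjamini-Hochberg adjusted p under 0.05, 4 re-fed against 4 fasted libraries). Over all tested loci, 32.4% rose and 20.6% fell in the same comparison. Of the 18 core genes 15 rose, with a median log2 fold change of 0.69, beside 0.10 over all tested loci. Of the 4 activators 2 rose, Psme1 and Psme2, while Psme3 and Psme4 did not pass. Their median of 0.85 lay between these 2 pairs and describes neither. All 4 core assembly chaperones rose, with a median of 0.81. Of the 20 regulatory genes 10 rose and 1 fell, with a median of 0.30, which was -0.04 after quantile normalization and -0.00057 after the trend with transcript length was removed. The core median stayed above 0 under every scaling tried. With median-ratio scaling 27.6% of all loci rose and 26.5% fell, the median over all loci was 0.01, and 27 members rose and 1 fell. When libraries were scaled to an equal FPKM sum, 18.8% of all loci rose and 33.4% fell, the median over all loci was -0.13, and 22 members rose and 3 fell.

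Summed over members, the fasted libraries held 2082 and 2300 FPKM in controls and 2592 and 2114 in LMKO livers, against 3108 and 3222 in re-fed control livers and 3506 and 3809 in re-fed LMKO livers. The 2 feeding states did not overlap. As a share of all FPKM the members took 0.452% to 0.556% in fasted and 0.583% to 0.656% in re-fed libraries. The core sum went from 1061 to 1347 FPKM in the fasted libraries to 1696 to 2166 in the re-fed ones, also without overlap. The regulatory sum was 819 to 1042 FPKM fasted and 1005 to 1245 re-fed, and there fasted LMKO replicate 1 (1042) lay above re-fed control replicate 2 (1005). For single genes, all 4 re-fed libraries lay above all 4 fasted ones for 32 members and below them for 1, beside 28.5% and 17.4% of all tested loci.

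Each genotype was also tested on its own. In controls 22 members rose and 1 fell, beside 22.8% and 10.5% of all loci, and the core and regulatory medians were 0.64 and 0.22 (all loci 0.13). In LMKO livers 26 rose and 1 fell, beside 23.2% and 16.3%, with medians of 0.75 and 0.37 (all loci 0.06). These counts depended on single libraries, and so did the share called over all loci. Both were lower when any one of the genotype's own libraries was left out. With single libraries left out, the core median ran from 0.58 to 0.71 in controls and from 0.62 to 0.91 in LMKO livers. The regulatory median was 0.34 in controls without fasted control replicate 2, and in LMKO livers it was 0.19 without fasted LMKO replicate 2 and 0.55 without fasted LMKO replicate 1. Values below are therefore tested over both genotypes, and the genotypes' own fold changes are set beside them.

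**Figure D1:**
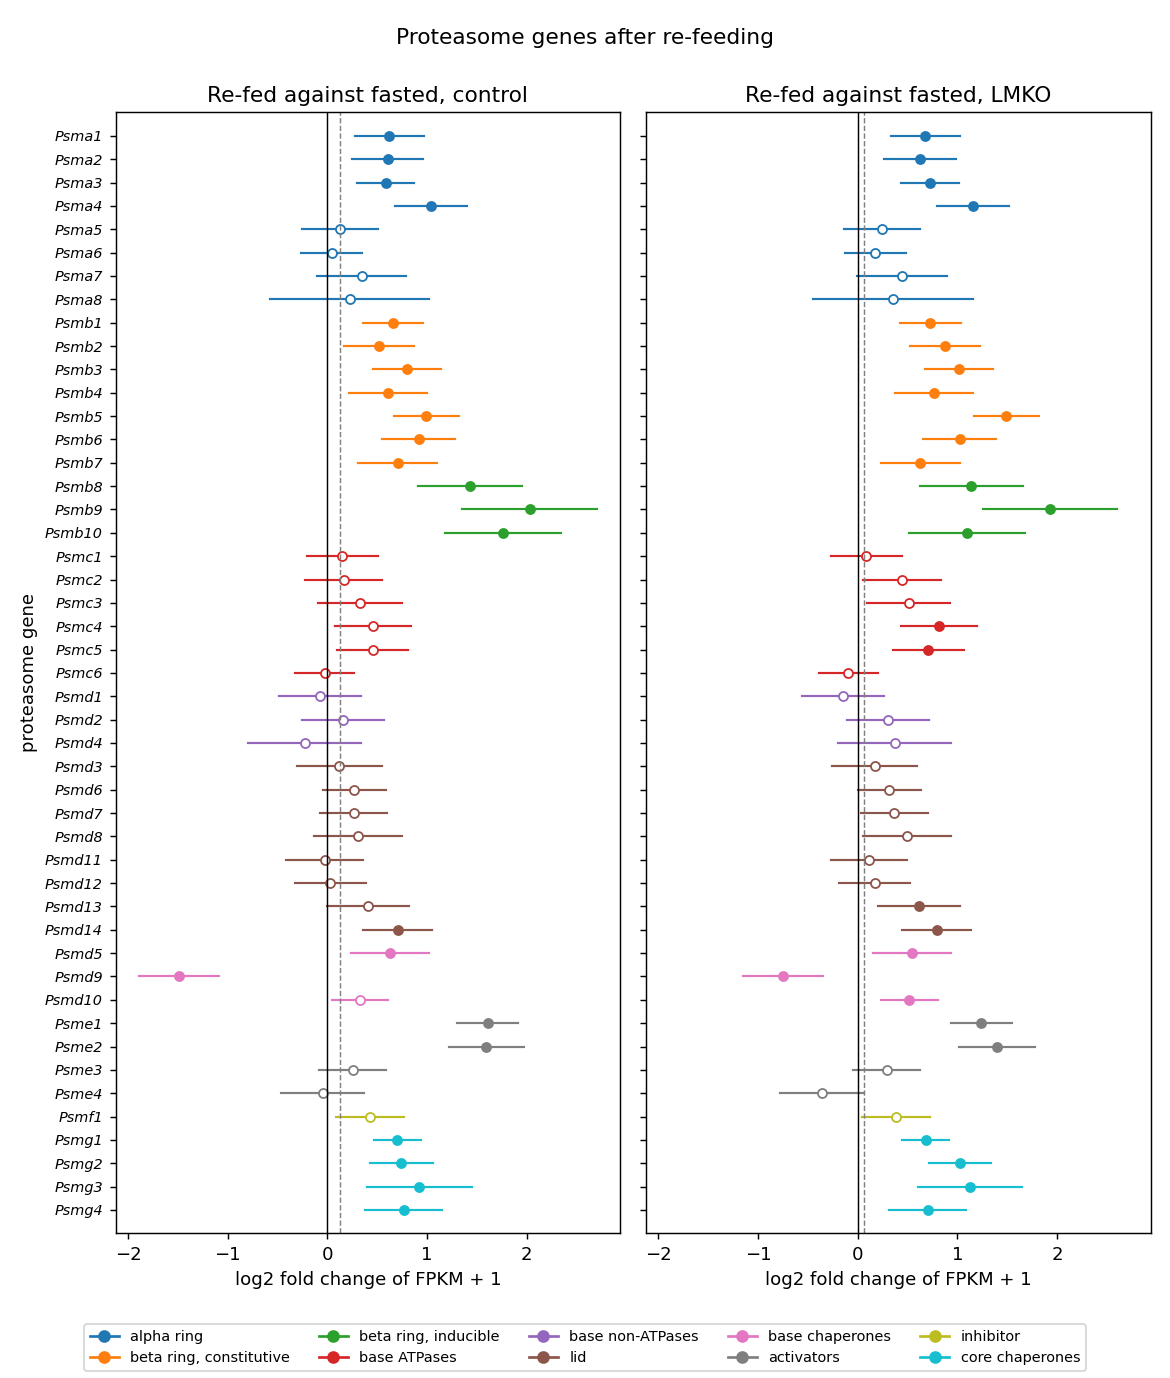
Log2 fold change of FPKM + 1, re-fed against fasted, for the 47 proteasome genes (rows, coloured by role) in control (left) and LMKO livers (right). Bars are 95% confidence intervals from limma, filled points have an adjusted p under 0.05, and the dashed line is the median of all tested loci (0.13 and 0.06). Psmb9 lies farthest to the right in both panels and Psmd9 farthest to the left. Most regulatory genes have open points in both, as do Psmf1, Psma5, Psma6, Psma8, Psme3 and Psme4 among others.

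The alpha ring did not move as one. Psma1, Psma2, Psma3, Psma4 and Psma7 rose and Psma5, Psma6 and Psma8 did not pass. Psma4 changed most, from 55.6 and 68.6 FPKM in fasted controls and 66.1 and 59.9 in fasted LMKO to 121 and 136 in re-fed control livers and 132 and 152 in re-fed LMKO livers. Every re-fed library was above every fasted one, and the log2 fold change was 1.10 (SE 0.11, limma adjusted p 0.00049; 1.04 in controls and 1.16 in LMKO). Psma3 went from 62.2, 63.6, 75.0 and 65.8 FPKM in the fasted libraries to 89.8, 100.1, 115 and 120 in the re-fed ones, again without overlap (log2 fold change 0.66, SE 0.09, adjusted p 0.0012). Psma1 went from 50.2, 56.1, 66.0 and 55.4 FPKM to 79.9, 84.5, 89.4 and 106 (0.65, SE 0.10, adjusted p 0.0025). Psma6, in the same ring, stayed between 101 and 125 FPKM fasted and between 108 and 137 re-fed, and these ranges overlapped (0.11, adjusted p 0.337). Psma5 spanned 45.4 to 58.4 FPKM fasted and 49.7 to 71.1 re-fed (0.19, adjusted p 0.202).

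All 7 constitutive beta subunits rose over both genotypes, and each also passed within each genotype. Within controls the calls of Psmb2 and Psmb4 were each lost without any one of the 4 control libraries or either re-fed LMKO library, where limma gave an adjusted p of at most 0.142 and 0.114, and Psmb2 was at -0.0032 with the length trend removed. In controls Psmb1 lost the call without fasted or re-fed control replicate 2 and Psmb7 without fasted or re-fed control replicate 1. In LMKO livers Psmb4 and Psmb7 lost it without either re-fed library or fasted LMKO replicate 2 (adjusted p up to 0.124). Psmb5, which carries the chymotrypsin-like site, was at 58.9 and 64.0 FPKM in fasted controls, 64.7 and 54.1 in fasted LMKO livers, 115 and 132 in re-fed control livers and 168 and 168 in re-fed LMKO livers. By FPKM the groups formed 3 levels, with both fasted groups lowest and re-fed LMKO above re-fed control. The difference between the 2 re-fed groups did not pass, as given below. Its log2 fold change over both genotypes was 1.24 (SE 0.10, adjusted p 0.00028; 0.99 in controls, 1.49 in LMKO), or 2.41 times the fasted FPKM. Psmb6, with the caspase-like site, was at 62.7 and 62.6 FPKM in fasted controls, 91.0 and 67.4 in fasted LMKO livers, 117 and 121 in re-fed control livers and 161 and 160 in re-fed LMKO livers (0.97, SE 0.11, adjusted p 0.00074). Psmb7, with the trypsin-like site, was the most abundant member by mean FPKM: 110 and 133 in fasted controls, 159 and 127 in fasted LMKO livers, 215 and 182 in re-fed control livers and 219 and 222 in re-fed LMKO livers (0.67, SE 0.12, adjusted p 0.0038). For both, every re-fed library exceeded every fasted one. The non-catalytic Psmb3 went from 78.7 and 77.3 FPKM in fasted controls and 100.5 and 77.4 in fasted LMKO to 135 and 138 in re-fed control livers and 176 and 182 in re-fed LMKO livers (0.91, adjusted p 0.00073), and Psmb1, Psmb2 and Psmb4 rose by 0.69, 0.70 and 0.69.

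The inducible catalytic subunits were the least abundant beta-ring members on the FPKM scale, and Psmb9 had the largest log2 fold change of the 47 members. Psmb9 was at 7.95 and 6.17 FPKM in fasted controls, 4.80 and 6.15 in fasted LMKO livers, 27.0 and 37.4 in re-fed control livers and 17.9 and 30.8 in re-fed LMKO livers. Psmb8 was at 9.15 and 8.62 FPKM in fasted controls, 5.82 and 7.55 in fasted LMKO livers, 21.7 and 30.4 in re-fed control livers and 13.5 and 18.6 in re-fed LMKO livers. Psmb10 was at 7.77 and 5.65 FPKM, 7.85 and 9.79, 19.7 and 31.3, and 21.2 and 18.8 in the same order. None of the 3 genes had a fasted library as high as any re-fed one. The log2 fold changes were 1.98 for Psmb9 (SE 0.20, adjusted p 0.00056), 1.29 for Psmb8 (SE 0.15, adjusted p 0.00092) and 1.43 for Psmb10 (SE 0.17, adjusted p 0.00094). In controls they were 2.03, 1.43 and 1.76, and in LMKO livers 1.93, 1.14 and 1.10. Within LMKO livers the Psmb10 call did not hold under every alternative and left-out library, whereas those of Psmb8 and Psmb9 did. Psmb9 and Psmb8 are neighbours on chromosome 17, with 10864 bases between the loci (mm9 chr17:34319044-34324275 and chr17:34335140-34338399).

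Each inducible gene was set against the constitutive gene whose place its product takes. Psmb9 amounted to 12.7% and 9.85% of Psmb6 in fasted controls, 5.27% and 9.12% in fasted LMKO livers, 23.0% and 30.9% in re-fed control livers and 11.1% and 19.2% in re-fed LMKO livers. Psmb10 amounted to 4.24% to 7.72% of Psmb7 fasted and 8.46% to 17.2% re-fed, and Psmb8 to 9.0% to 15.5% of Psmb5 fasted and 7.99% to 22.9% re-fed. Re-fed livers lay above fasted ones without overlap for the Psmb10 ratio (exact two-sided permutation test over 4 against 4 libraries, p = 0.0286, the smallest possible, adjusted over 3 ratios 0.0857). For the Psmb9 ratio a single fasted library, a control, reached above the lowest re-fed one, an LMKO library (exact permutation p = 0.0571, adjusted 0.0857). For the Psmb8 ratio the states overlapped (exact permutation p = 0.743). These permutations pooled the genotypes. Within each genotype the Psmb9 ratio did not overlap between feeding states. In fasted controls the Psmb8 ratio was 15.5% and 13.5%, and in re-fed controls 18.9% and 22.9%, without overlap. In LMKO livers it was 9.0% and 13.97% fasted and 7.99% and 11.1% re-fed, and these overlapped. The ratios were not tested within a genotype. No ratio passed after adjustment.

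**Figure D2:**
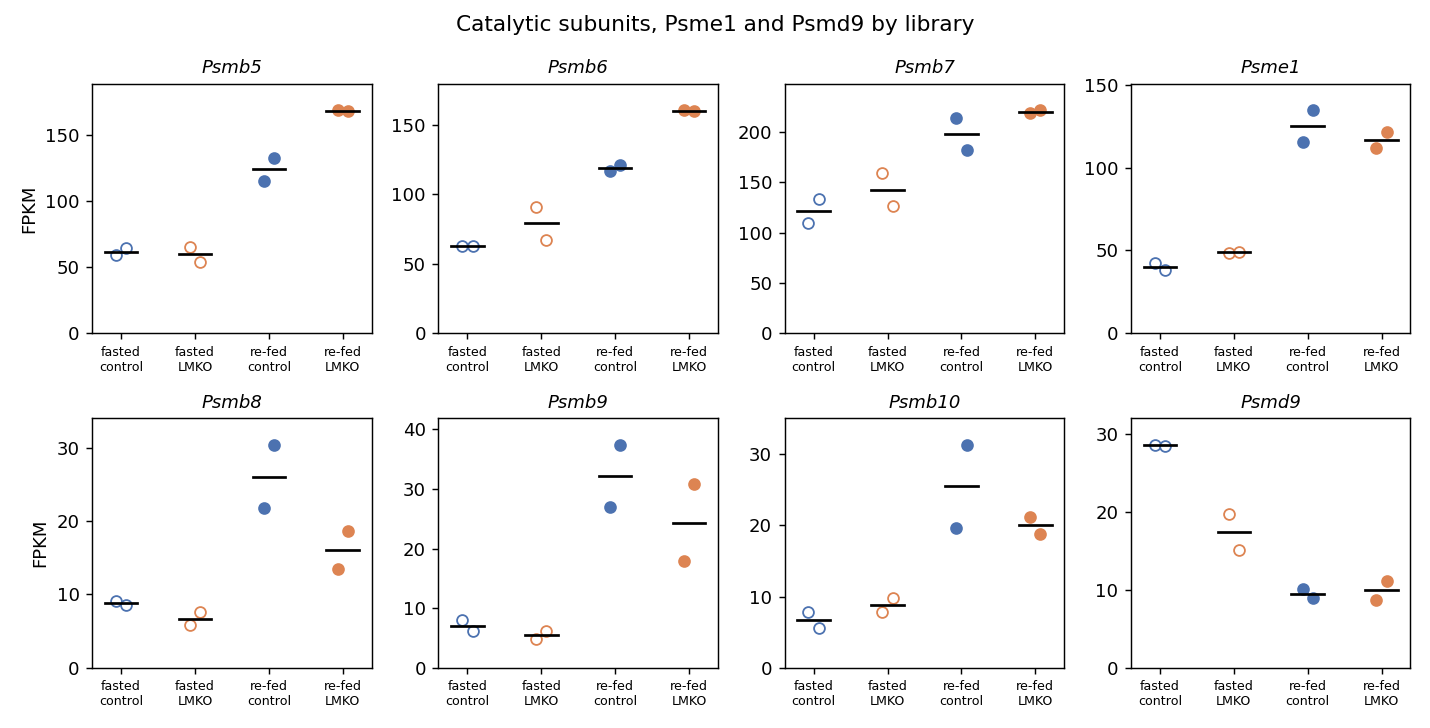
FPKM (y axis, from 0, separate scale per gene) of the constitutive catalytic subunits Psmb5, Psmb6 and Psmb7, their inducible counterparts Psmb8, Psmb9 and Psmb10, the activator Psme1 and the assembly chaperone Psmd9. Points are single libraries of the 4 groups and lines are group means; re-fed libraries exceed fasted ones in every panel but Psmd9, where they are lowest.

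The PA28 activator genes Psme1 and Psme2, whose products form an alternative cap that opens the core without ATP, rose together. Psme1 was at 42.4 and 37.9 FPKM in fasted controls, 48.4 and 49.3 in fasted LMKO livers, 115 and 135 in re-fed control livers and 112 and 122 in re-fed LMKO livers. Psme2 was at 43.2 and 37.4, 43.3 and 48.3, 109 and 141, and 119 and 125 FPKM in the same order. The 2 genes had near-equal levels in each library and fed and fasted livers were far apart, with log2 fold changes of 1.43 (SE 0.09, adjusted p 0.00018) and 1.496 (SE 0.11, adjusted p 0.00025). Their loci on chromosome 14 are separated by 5912 bases (mm9 chr14:56197331-56200364 and chr14:56206277-56209938). The other activators did not pass: Psme3, the nuclear PA28 gamma, was at 17.4 to 21.0 FPKM fasted and 21.6 to 25.5 re-fed (0.27, adjusted p 0.0555), and Psme4 (PA200) at 25.9 to 32.2 and 22.1 to 31.5 (-0.20, adjusted p 0.209). The inhibitor Psmf1 (PI31) went from 6.72, 8.86, 8.40 and 7.56 FPKM to 11.01, 10.4, 10.4 and 11.1 (0.41, adjusted p 0.0141), and missed the threshold without re-fed LMKO replicate 2 (adjusted p 0.0502).

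Interferon-inducible genes of antigen presentation were measured beside these 5 genes. Of 12 such genes, 8 rose over both genotypes and none fell, with a median log2 fold change of 0.60, beside 32.4% of loci that rose and a median of 0.10 over all loci. Beta-2 microglobulin (B2m) went from 1019 ± 37.8 and 1065 ± 116 FPKM in fasted control and LMKO livers to 1964 ± 575 and 1744 ± 91.8 in the re-fed ones (SD, n = 2; limma log2 fold change 0.82, adjusted p 0.0042). Isg15 rose by 1.46 and Tapbp by 0.64 (adjusted p 0.0042 and 0.0020), while Irf1, Irf7, Nlrc5 and Erap1 did not pass. With the trend in transcript length removed, as described below for the members, 4 of the 12 rose, beside 22.4% of all loci, and B2m (0.23, limma adjusted p 0.203) and Isg15 (0.83, adjusted p 0.0550) no longer passed. Re-fed control replicate 2 had the highest sum of these 12 genes (3653 FPKM, against 1560 to 2745 in the other 7 libraries), the highest Psmb8, Psmb9, Psmb10, Psme1 and Psme2, and the highest sum of 8 T and NK cell markers (4.09 FPKM, against 0.662 to 1.84). None of those 8 markers, nor the 4 B cell markers (0.237 to 1.78 FPKM), passed the filter on low values. The 9 Kupffer cell and macrophage markers found summed to 97.0 to 146 FPKM fasted and 49.4 to 109 re-fed, so their sum was not higher in re-fed livers. Of the 9, 7 fell in LMKO livers and 1 in controls, beside 16.3% and 10.5% of all loci. The difference between the re-feeding responses of the genotypes called 0 of the 9, beside 0.0368% of all loci. A difference between the genotypes was therefore not shown for these markers. Other marker lists also moved with feeding. Of the sinusoidal endothelial markers 5 of 6 fell over both genotypes (median log2 fold change -1.27, summed FPKM 57.2 to 82.0 fasted and 36.4 to 48.6 re-fed). Of the stellate cell markers 3 of 6 fell and 1 rose, and of the 7 tested hepatocyte markers 5 fell and 1 rose (median -0.57). Over all tested loci 20.6% fell and 32.4% rose. The ribosomal RNA locus Rn45s was at 185 to 1324 FPKM fasted and 802 to 3448 re-fed, highest in re-fed control replicate 2. Their part in the re-feeding result was not tested. All 5 proteasome genes were still called without re-fed control replicate 2 or any other single library.

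In the base of the regulatory particle, the ATPase genes Psmc3, Psmc4 and Psmc5 rose and Psmc1, Psmc2 and Psmc6 did not pass. Psmc4 was at 45.6 and 54.3 FPKM in fasted controls, 51.6 and 40.9 in fasted LMKO livers, 69.7 and 68.1 in re-fed control livers and 76.1 and 87.8 in re-fed LMKO livers. Psmc5 was at 44.2 and 54.4, 54.9 and 45.2, 67.9 and 67.3, and 79.3 and 84.9 FPKM in the same order. Both were higher in every re-fed than in any fasted library, by 0.64 (SE 0.11, limma adjusted p 0.0037) and 0.58 (SE 0.11, adjusted p 0.0042). Psmc3 was at 50.3 and 63.7, 70.2 and 53.6, 71.2 and 71.3, and 83.1 and 92.9 FPKM in that order (0.42, adjusted p 0.0271). In contrast Psmc6 stayed at 46.8 to 57.0 FPKM fasted and 47.0 to 53.7 re-fed (-0.06, SE 0.09, adjusted p 0.583). None of the 3 non-ATPase base genes passed: the scaffold genes Psmd1 and Psmd2 had log2 fold changes of -0.11 and 0.23, and the ubiquitin receptor Psmd4 had 0.07, with adjusted p from 0.151 to 0.736.

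Of the 8 lid genes 5 rose, with a median log2 fold change of 0.31, and the deubiquitinase Psmd14 had the highest. It went from 21.6 and 26.0 FPKM in fasted controls and 24.4 and 22.6 in fasted LMKO to 41.4 and 37.5 in re-fed control livers and 37.9 and 45.4 in re-fed LMKO livers. The re-fed values were clear of the fasted ones (log2 fold change 0.75, SE 0.10, limma adjusted p 0.0015; 0.71 in controls and 0.79 in LMKO). Psmd13 went from 34.7, 45.4, 41.7 and 35.3 FPKM to 58.1, 48.3, 57.0 and 61.8, also without overlap (0.51, adjusted p 0.0123). Psmd7 went from 35.4, 39.5, 43.4 and 34.7 FPKM to 46.2, 44.3, 48.2 and 52.5 (0.32, adjusted p 0.0339). Psmd6, Psmd7 and Psmd8 rose by 0.30 to 0.40, and Psmd3, Psmd11 and Psmd12 did not pass, at 0.04 to 0.15. On the FPKM scale, which is per length, Psmd14 had the lowest mean of the 8 lid genes in all 4 groups.

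Several of these calls rested on single libraries. Psma7, Psmc3, Psmd6, Psmd7 and Psmd8 each missed the threshold without fasted control replicate 1, without fasted LMKO replicate 2, without re-fed LMKO replicate 1 and without re-fed LMKO replicate 2. Psma7 also missed it without fasted control replicate 2 or re-fed control replicate 2, Psmc3, Psmd6 and Psmd7 without either re-fed control replicate, and Psmd8 without re-fed control replicate 1. The highest limma adjusted p so reached was 0.127 for Psma7, 0.0868 for Psmc3, 0.0979 for Psmd6, 0.107 for Psmd7 and 0.118 for Psmd8. Psma7, Psmd6 and Psmd7 also changed direction under another scaling, to -0.03 and -0.05 for Psma7 and Psmd6 after quantile normalization and to -0.02 for Psmd7 with the length trend removed.

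The 3 chaperones that assemble the regulatory base moved in opposite directions. Psmd9 (p27) was the sole member that fell: 28.5 and 28.4 FPKM in fasted controls, 19.7 and 15.1 in fasted LMKO livers, 10.04 and 8.98 in re-fed control livers and 8.68 and 11.1 in re-fed LMKO livers. Fasted controls were highest, fasted LMKO lay between, and the re-fed groups were lowest and overlapped each other. The log2 fold change was -1.12 over both genotypes (SE 0.12, limma adjusted p 0.00064), -1.49 in controls and -0.75 in LMKO. Within LMKO the call was lost without fasted LMKO replicate 1 or re-fed LMKO replicate 1 (adjusted p up to 0.0830). Psmd5 (S5b) went from 11.7 and 10.9 FPKM in fasted controls and 14.9 and 12.8 in fasted LMKO to 20.4 and 15.9 in re-fed control livers and 18.7 and 22.9 in re-fed LMKO livers. Psmd10 (gankyrin) was at 5.58 and 5.67, 5.93 and 5.47, 6.62 and 8.05, and 8.54 and 8.66 FPKM in the same order. Neither overlapped between feeding states, and the log2 fold changes were 0.59 (adjusted p 0.0057) and 0.42 (adjusted p 0.0058).

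All 4 genes of the chaperones that assemble the alpha ring, Psmg1 to Psmg4, rose over both genotypes and passed within each. With the length trend removed Psmg4 was at -0.03 over both genotypes and -0.17 in LMKO livers, and the Psmg1 call was lost. Within a genotype the calls of Psmg3 and Psmg4 were lost without fasted control replicate 2, re-fed control replicate 2, fasted LMKO replicate 2 or re-fed LMKO replicate 2, and that of Psmg4 also without re-fed LMKO replicate 1, with a limma adjusted p of at most 0.102. Psmg1 was at 16.9 and 16.7 FPKM in fasted controls, 18.7 and 18.9 in fasted LMKO livers, 28.5 and 27.4 in re-fed control livers and 30.2 and 31.4 in re-fed LMKO livers. Its replicates were close and the feeding states far apart (log2 fold change 0.69, SE 0.07, limma adjusted p 0.00054). Psmg2 was at 9.81 and 8.29, 8.34 and 7.50, 14.6 and 17.0, and 17.5 and 16.8 FPKM in the same order (0.88, adjusted p 0.00061). Psmg3 was at 10.01 and 7.11, 10.2 and 8.22, 14.6 and 19.7, and 19.1 and 23.7 FPKM (1.03, adjusted p 0.0021). Psmg4 went from between 9.49 and 12.9 FPKM fasted to between 15.5 and 20.3 re-fed (0.74, adjusted p 0.0024), and none of the 3 overlapped between feeding states. Pomp, the maturation factor of the core that lies outside the symbol rule, went from 86.0 ± 4.95 and 102 ± 12.3 FPKM in fasted control and LMKO livers to 216 ± 21.8 and 260.2 ± 7.83 in the re-fed ones (SD, n = 2; limma log2 fold change 1.33, adjusted p 0.00024). Of the 7 measured subunits and cofactors outside the rule, Pomp, the lid subunit Shfm1 (0.998) and the deubiquitinase Uchl5 (0.39) rose. AI314180 (-0.50), the mouse Ecm29 gene, fell, and Adrm1, Usp14 and Ube3c did not pass. These counts lay near the shares over all tested loci, of which 32.4% rose and 20.6% fell. The median of the 7 was 0.08, beside 0.10 over all loci. With the length trend removed, Uchl5 was at 0.10 and AI314180 at -0.18 and neither passed.

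Transcript length moved with feeding and with the split between core and regulatory genes. In each library the deviation of a locus from its mean over all libraries was set against transcript length across loci, which are not independent replicates: the correlation was 0.243 to 0.301 in the 4 fasted libraries, -0.02 in re-fed control replicate 1 and -0.378 to -0.334 in the other 3 re-fed libraries. Shorter transcripts were thus relatively higher in 3 re-fed libraries. The median transcript was 1192 bases for core genes, 1710.5 for regulatory genes and 2713.5 for all tested loci, and 94.4% of the core genes were shorter than that last value. After a smooth trend with length was removed from each library, the core median was 0.32 and the regulatory median -0.00057, and 20 members were called (17 higher and 3 lower, beside 22.4% and 21.9% of all loci), 18 of them in the direction given above. Gone were the calls of Psma1, Psma7, Psmb2, Psmb4, Psmb7, Psmg1, Psmg4 and of 8 regulatory genes, Psmc3, Psmc4, Psmc5, Psmd6, Psmd7, Psmd8, Psmd10 and Psmd13. Psma6 (-0.45) and Psmc6 (-0.25) passed as lower instead. The inducible and activator genes were still called, at 1.58 for Psmb9, 0.96 for Psmb8, 1.01 for Psmb10, 0.94 for Psme1 and 0.92 for Psme2, as were Psmb5 at 0.67, Psma4 at 0.63 and Psmd9 at -1.25. In controls the core median was 0.65 without re-fed control replicate 2, that is, with the re-fed library whose length correlation was near 0. That comparison still differed with length, since the fasted controls had correlations of 0.277 and 0.243. At 1000 bases the length trend was 0.08 in re-fed control replicate 1, against -0.28 and -0.37 in the fasted controls. At 4000 bases it was 0.05, against 0.001 and -0.02. The part of transcript length in the feeding result was not tested further.

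**Figure D3:**
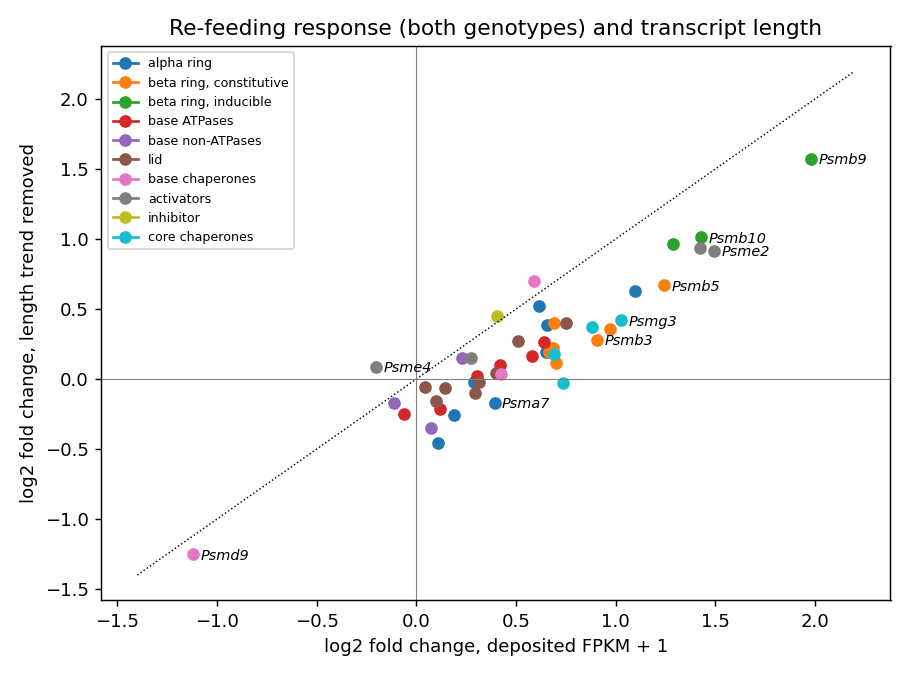
Log2 fold change on re-feeding (mean of both genotypes) for the 47 members, as deposited (x axis) and after a trend with transcript length was removed from each library (y axis), coloured by role. The dotted line marks equal values; most members lie below it, Psmb9, Psmb10, Psme2 and Psmb5 remain well above 0, and Psmd9 remains below.

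No proteasome gene was called between the genotypes. In fasted livers 0 of 47 members passed in LMKO against control (limma, adjusted p under 0.05; 1 had an unadjusted p under 0.05), beside 0.166% of all tested loci (12.4% unadjusted). In re-fed livers it was again 0 (5 with an unadjusted p under 0.05), beside 0.101% (11.7% unadjusted), and over both feeding states 0 (6 with an unadjusted p under 0.05), beside 0.313% (15.1% unadjusted). The core medians were 0.15 fasted and 0.26 re-fed, and the regulatory medians 0.04 and 0.18, beside 0.08 and 0.01 over all loci. The fasted values depended on fasted LMKO replicate 1, without which the core median was 0.03 and the regulatory one -0.09, and on fasted LMKO replicate 2, without which they were 0.27 and 0.20. They were 0.10 and -0.05 without fasted control replicate 1, and the regulatory one was 0.14 without fasted control replicate 2. The fasted core median was 0.06 with median-ratio scaling and 0.06 with the length trend removed, and the regulatory one was -0.05, -0.04 and -0.03 with median-ratio scaling, the length trend removed and quantile normalization. In the re-fed state both LMKO libraries were above both controls for 27 members and below for 1, beside 25.6% and 19.4% of all loci. The re-fed LMKO libraries also had the higher FPKM sums (580797 and 597650, against 511926 and 552680 in re-fed controls), and with equal FPKM sums the re-fed core median was 0.11 and the regulatory one 0.03. With the length trend removed both were 0.10. The re-fed regulatory median was 0.10 without re-fed LMKO replicate 2.

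In re-fed livers the catalytic subunits had LMKO minus control values of both signs, none of which passed. Psmb5 and Psmb6 had log2 fold changes of 0.44 and 0.43 in LMKO against control, and Psmb8 had -0.67, each without overlap of the libraries but with limma adjusted p of 0.342, 0.387 and 0.357. The 15 core members other than the inducible ones were at or above 0.14, and the 3 inducible ones at -0.30 or below. In fasted livers the smallest p among members was that of Psmd9, with 28.5 and 28.4 FPKM in controls and 19.7 and 15.1 in LMKO livers (log2 fold change -0.69, SE 0.17, limma unadjusted p 0.0050, adjusted p 0.195). Psme1 (0.28) and Psmb6 (0.32) followed, with adjusted p of 0.452 and 0.465. Over both feeding states the 3 smallest p were those of Psmb6 (0.37, adjusted p 0.209), Psmb8 (-0.52, adjusted p 0.216) and Psma2 (0.30, adjusted p 0.261). The difference between the re-feeding responses of the genotypes called 0 members (2 with an unadjusted p under 0.05), beside 0.0368% of all loci (9.35% unadjusted). Those 2 were Psmd9 (0.74, adjusted p 0.507) and Psmb5 (0.50, adjusted p 0.516), so a difference in response between the genotypes was not shown for any member.

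**Figure D4:**
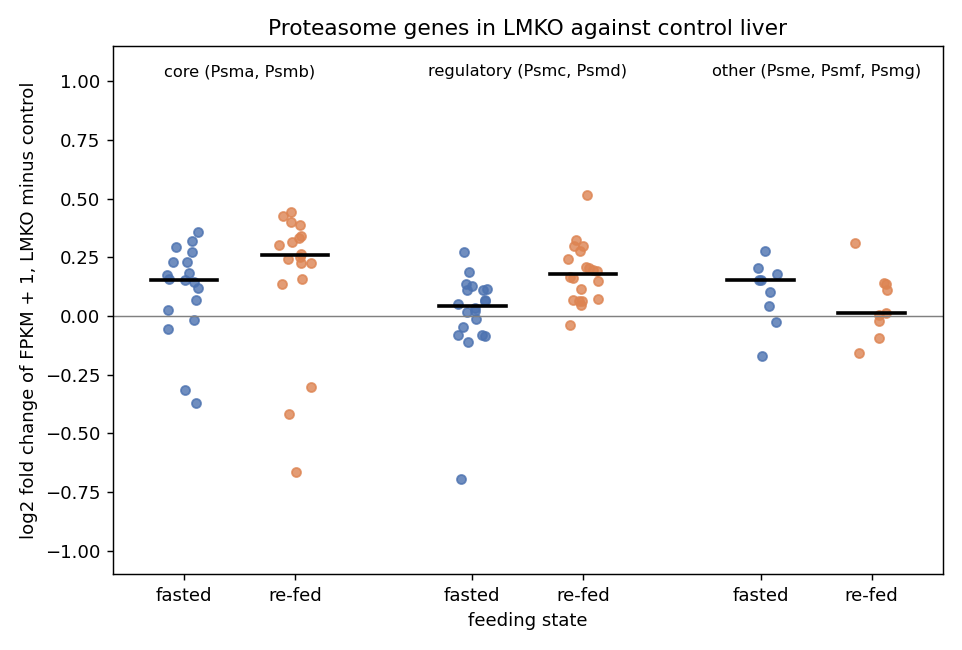
Log2 fold change of FPKM + 1, LMKO minus control, for each of the 47 members in fasted (blue) and re-fed (orange) livers, by core, regulatory and other genes. Lines are medians; none of the points passed the test, the lowest fasted point is Psmd9 (-0.69) and the lowest re-fed core point is Psmb8 (-0.67).

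Among 6 regulators of proteasome genes, 1 rose and 2 fell on re-feeding over both genotypes, beside 32.4% and 20.6% of all tested loci, so these counts lay near the background. Ddi2, the protease that activates NRF1, fell by 0.74 (limma adjusted p 0.0033) and was called as lower without any single library. Nfe2l1, the NRF1 gene, had -0.29 (adjusted p 0.0320), and lost the call without any one of the 4 re-fed libraries, and also without fasted control replicate 2 or without fasted LMKO replicate 1 (adjusted p up to 0.0944). Nfe2l2, the gene of the related factor NRF2, had 0.78 (adjusted p 0.0182), and lost the call when re-fed control replicate 1, fasted control replicate 2 or fasted LMKO replicate 2 was left out (adjusted p up to 0.0592). It also lost the call with the length trend removed (0.54, adjusted p 0.0621), after quantile normalization and with equal FPKM sums. The Nfe2l1 call was lost with the length trend removed too (-0.21, adjusted p 0.0742). Ngly1, Vcp and Akirin2 did not pass.

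Among genes that supply and activate ubiquitin, Rps27a, which encodes ubiquitin fused to a ribosomal protein, rose by 0.96 on re-feeding over both genotypes (limma adjusted p 0.00038), and was called without any single library. With the length trend removed Rps27a was still called, but at 0.34 (adjusted p 0.0176). The polyubiquitin gene Ubb fell by 0.37 (adjusted p 0.0241), a call lost without either re-fed control replicate, re-fed LMKO replicate 2, fasted control replicate 2 or fasted LMKO replicate 1 (adjusted p up to 0.0836). Uba1 and Uba6, the genes of the ubiquitin-activating enzymes, did not pass. Of 7 genes that carry substrates to the proteasome, Rad23b passed as higher (0.32, limma adjusted p 0.0458). Ubqln2 (-0.35, adjusted p 0.0196) and Zfand5 (-0.55, adjusted p 0.0089) passed as lower. Over all tested loci 32.4% were higher and 20.6% lower, so these counts lay near the background. The Rad23b call was lost without any single library other than fasted LMKO replicate 1. Median-ratio scaling, quantile normalization and equal FPKM sums each lost it too, and its log2 fold change went down to 0.0039 under the alternatives. The Ubqln2 call was lost without either re-fed LMKO replicate, re-fed control replicate 1 or fasted control replicate 2 (adjusted p up to 0.0587), and Zfand5 was at -0.21 with the length trend removed (adjusted p 0.185).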

How the data were processed

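Each library was deposited as a list of loci with symbol, mm9 position and an FPKM value that the authors computed. Per the submitters' processing notes, TopHat 1.4.1, Cufflinks 2.0.2 and Cuffdiff 2.0.2 were used, and no source used here gives any scaling between libraries. No further scaling was applied. Fragment numbers are unknown, and repeated ratios of low values gave a relative depth of 0.956 to 1.112. Deposited starts count from 0 and are printed 1 higher.

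Loci that reached 1 FPKM in 2 or more libraries were fitted with limma 3.58.1 (R 4.3.3) on log2(FPKM + 1), as 1 model of the 4 group means with a mean-variance trend. Two-sided p-values were adjusted over all 10865 loci of a comparison (Benjamini-Hochberg), and rose, fell or called means an adjusted p under 0.05. On the log2(FPKM + 1) scale a fold change of a low gene is understated. The scripts were tested on simulated data. Transcript lengths came from GENCODE vM21 transcripts paired with RefSeq, for 99.0% of tested loci and all 47 members. The length trend was a lowess fit with a span of 0.3.

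Alternatives were pseudocounts of 0.1 and 0.5, no filter, a filter at 5 FPKM, quantile normalization, median-ratio scaling, removal of the length trend, other eBayes settings, a fit to a comparison's own libraries, a replicate block, each library left out and, chosen after seeing the data, scaling to an equal FPKM sum. Members and gene lists were chosen with earlier results of these data known. Values in every library are given for the 3 members with the smallest p of each role, for Psmb5 to Psmb10, for Psme1 and Psme2 and for the targeted Med23, and other genes come from the lists, those called or with the 2 smallest p. Psma8, the lowest member by mean FPKM, the activator Psme3 and the base genes Psmd1, Psmd2 and Psmd4 are exceptions, given by range or fold change alone. Where no member was called, the 3 smallest p are given. Psma5, Psma6, Psmc6 and Psme4, described by their ranges, were chosen after their values were seen. Some genes of the ubiquitin list are not reported here.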

Additional observations from a re-analysis of the deposited data

How the results depend on the processing

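Pseudocounts, the stricter filter on low values and the other eBayes settings changed no count of called members by over 1.5 times. With the length trend removed, 12, 14 and 20 members were called on re-feeding in controls, in LMKO and over both, with core medians of 0.29, 0.33 and 0.32 and regulatory medians of -0.083, 0.081 and -0.00057, and the LMKO minus control core medians were 0.10 re-fed and 0.062 over both states. Quantile normalization gave core medians of 0.27, 0.37 and 0.28, regulatory medians of -0.12, 0.012 and -0.037, and 15 calls in controls. Equal FPKM sums gave 14 and 16 calls in controls and LMKO, core medians of 0.42, 0.41 and 0.42, regulatory medians of 0.0018, 0.039 and 0.028, a re-fed LMKO minus control core median of 0.11, and a core median of -0.0043 for the difference between responses. Median-ratio scaling gave a core median of 0.49 in controls and regulatory medians of 0.064 in controls and 0.19 over both genotypes. The cause of these shifts was not tested.

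The direction turned with the length trend removed for Psmb2 in controls (-0.0032), Psmg4 in LMKO (-0.17) and, over both genotypes, for Psmg4 (-0.025), Psma7 (-0.17), Psmd6 (-0.10) and Psmd7 (-0.020), and with quantile normalization for Psma7 (-0.029) and Psmd6 (-0.050).

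Leaving out each library gave 15 to 23, 15 to 27 and 27 to 35 calls on re-feeding in controls, in LMKO and over both. Core medians ran from 0.58 to 0.71, 0.62 to 0.91 and 0.61 to 0.77, and regulatory ones from 0.15 to 0.34, 0.19 to 0.55 and 0.21 to 0.38. LMKO minus control core medians ran from 0.026 to 0.27 fasted, 0.18 to 0.35 re-fed and 0.13 to 0.26 over both, and regulatory ones from -0.092 to 0.20, 0.10 to 0.22 and 0.021 to 0.17. For the difference between responses they ran from -0.034 to 0.24 (core) and 0.012 to 0.29 (regulatory). The log2 change of the Psmb8 to Psmb5 ratio ran from -0.10 to 0.41, with -0.03 without fasted LMKO replicate 1 and -0.0075 without re-fed control replicate 1. That of Psmb9 to Psmb6 ran from 0.92 to 1.44 and that of Psmb10 to Psmb7 from 0.64 to 1.01.

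With a replicate block 21, 25 and 29 members were called on re-feeding in controls, in LMKO and over both. Same-numbered libraries deviated together by a correlation of -0.084 to -0.008 over 6 pairs of groups, so the numbers were not taken to pair the mice. With 2 mice a group and an unknown fragment number, small differences were not detectable, and low genes such as Psma8 are imprecise.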
